A study of Mus musculus with 30 samples.

Results

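The calcaneus, the heel bone into which the Achilles tendon inserts, was compared between samples labelled unstimulated at 12 days and naive samples at day 0. The 6 samples, 3 in each group, were chosen by their titles and are 6 of the 30 RNA sequencing samples of a study of muscle loading driven by light in tendon and bone. Unstimulated 12-day bones carry the treatment label of a control for optogenetic stimulation and the time label Day 12, and naive bones the labels for no treatment and Day 0. The genotype of all of them is given as Acta1,Ai32. Ai32 mice hold a channelrhodopsin gene that Cre recombinase switches on, which lets blue light depolarise a cell, and Acta1 is the actin gene of skeletal muscle. Whether Acta1 stands for a Cre driver is not stated in the labels used here. The labels give no age, and they do not say whether an unstimulated bone came from a separate animal or from the other leg of a stimulated one, or what the control procedure was. Day, handling and control procedure therefore changed together between the groups and cannot be told apart. Unstimulated bones at 5 days, stimulated bones at 12 days, and 12-day unstimulated and naive Achilles tendons of the same genotype were used for comparison.

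A heel bone sample holds mineralised bone, cartilage, marrow, blood vessels and the soft tissue at its surface. Osteoblasts build the matrix of type I collagen, osteocytes are the cells embedded in it, and osteoclasts resorb it under the control of RANKL and its decoy receptor osteoprotegerin. Red marrow between the bone trabeculae makes red cells, granulocytes, platelets and B cells, and its precursors divide continuously. In a bulk tissue, fewer cells of a type and less RNA per cell cannot be told apart.

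Gene counts summed to 22.1 to 35.0 M in 12-day bones (median 22.6 M) and to 20.8 to 27.8 M in naive bones (median 21.4 M). Bone-building genes took 9.86, 10.2 and 9.11% of counts in 12-day bones and 12.9, 13.9 and 13.4% in naive bones, with the groups apart. Skeletal muscle fibre genes took 2.38, 1.23 and 2.43% of counts in 12-day bones and 2.56, 1.41 and 0.0292% in naive bones, so that naive library 3 held far less muscle RNA than the others, and erythroid genes took 0.421, 0.768 and 0.899% of counts in 12-day bones and 1.92, 2.03 and 5.26% in naive bones, so that naive library 3 held the most. The same library stood farthest from the other bone libraries on their first principal component, which held 35.8% of the variance. Results that change without it are given both ways. Libraries 1 and 2 of the 5-day unstimulated group were nearly identical, with a biological coefficient of variation of 2.64%, against 13.2% to 33.2% in the 14 other pairs of bone libraries within groups, and were summed into 1.

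Between 12-day and naive bones, 1899 of 18851 genes tested rose (10.1%) and 2211 fell (11.7%), together 21.8% of genes at an adjusted p under 0.05 in edgeR's quasi-likelihood test. The change exceeded 1 on the log2 scale for 594 of the genes that rose and 794 of those that fell, while the median over all genes was 0.03. Libraries of the groups did not overlap for 39.5% of the genes tested. The 15 genes named for the largest change each way had to meet this condition, so their lack of overlap follows from the choice. By list, cell cycle (32 of 32), erythroid (24 of 25), early granulocyte (11 of 15) and B cell genes (16 of 23) had the highest shares of members that fell. Tendon fibroblast (13 of 19), complement and acute-phase (13 of 24), pericyte (6 of 13), adipocyte (9 of 20) and clock genes (9 of 20) had the highest shares that rose. Levels below are given as CPM, a gene's share of a library's counts after scaling, in libraries 1, 2 and 3 of each group. Each ± is the standard error of a log2 fold change. Its spread comes from the fit of all 14 bone libraries (29 libraries where tendon enters) and not from the compared libraries alone. The number of calls depended on single libraries: 2638 genes were called without naive library 3, 1951 without naive library 2, 2376 without 12-day library 1 and 2528 without 12-day library 3.

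**Figure D1:**
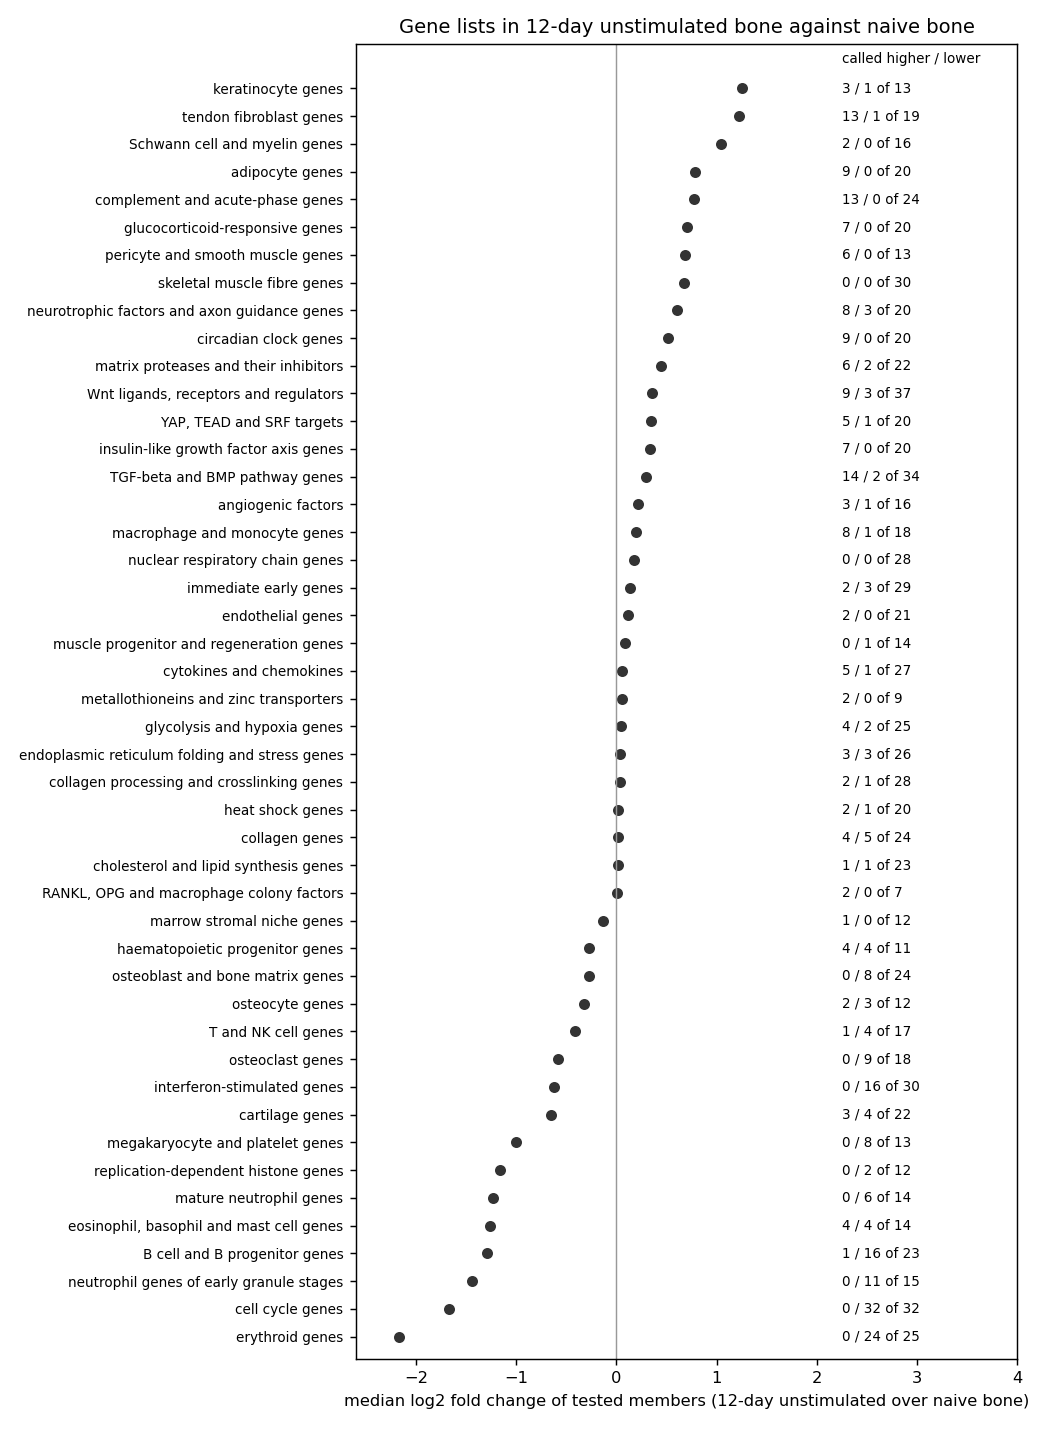
Median log2 fold change (x axis, 12-day unstimulated over naive bone) of each of the 46 gene lists, 1 row per list, with the number of members that rose and fell of those tested at the right. Erythroid and cell cycle genes had the lowest medians, -2.17 and -1.67, and tendon fibroblast genes stood at 1.22.

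Genes of the cell division cycle were lower throughout. All 32 cell cycle genes tested fell, with a median log2 fold change of -1.67, and all 32 also fell in each fit that left out 1 library and in every other alternative. The spindle assembly factor Tpx2 stood at 10.8, 15.6 and 15.3 CPM in 12-day bones, against 34.4, 48.5 and 49.9 CPM in naive bones (log2 fold change -1.67 ± 0.21, adjusted p = 0.00116). The spindle checkpoint kinase gene Bub1b stood at 6.82, 12.3 and 8.92 CPM in 12-day bones, against 25.9, 37.2 and 37.5 CPM in naive bones (log2 fold change -1.83 ± 0.23, adjusted p = 0.00129). For the mitotic kinase gene Cdk1, 12-day bones held 10.9, 14.4 and 15.6 CPM and naive bones 32.5, 43.5 and 53.2 CPM (log2 fold change -1.65 ± 0.23, adjusted p = 0.00164). The groups did not overlap for any of these, and 12-day library 1 was the lowest of the 6 each time. Cdc20, an activator of the ubiquitin ligase that ends mitosis, fell to a similar extent (-1.65 ± 0.23, adjusted p = 0.00165). Mki67, the gene of the proliferation antigen Ki-67, stood at 45.3, 68.6 and 85 CPM in 12-day bones, against 170.0, 245 and 298 CPM in naive bones (log2 fold change -1.84 ± 0.31, adjusted p = 0.00315). Replication-dependent histone genes had a median of -1.17, but these transcripts lack a poly-A tail, were measured at low counts in poly-A libraries, and 2 of 12 fell (1 without naive library 3 and 5 without naive library 1). Erythroid genes, whose shares of counts are given above, moved with the cell cycle genes, and the part of marrow in the fall of cell cycle genes was not tested.

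Promoters of cell cycle genes are known for a short element, TTTGAA, at which the DREAM and MuvB complexes bind, and for CCAAT boxes bound by NF-Y. Both were searched on both strands (with TTCAAA as the complement of the first and ATTGG as that of the second) in the 250 bases before the start site in RefSeq, build GRCm38.p6. Of the cell cycle genes, 27 had a promoter entry. CCAAT was found in 23 of the 27 (85.2%), against 37.5% of the promoters of all 27025 genes, and TTTGAA in 9 (33.3%), against 18.3%. Both stood in 9 of 27 (33.3%), against 6.45% of all genes. The last 150 bases before the start are printed for Cdk1 (chr10:69352913-69353062, minus strand), Cdc20 (chr4:118437344-118437493, minus strand) and Top2a (chr11:99024190-99024339, minus strand). They are the members with the smallest adjusted p among those reported here with both motifs in these 150 bases, picked after their values were seen. The sequences are written 5′ to 3′ along the gene, with both motifs in capitals on either strand, and no motifs overlapped there.
Cdk1: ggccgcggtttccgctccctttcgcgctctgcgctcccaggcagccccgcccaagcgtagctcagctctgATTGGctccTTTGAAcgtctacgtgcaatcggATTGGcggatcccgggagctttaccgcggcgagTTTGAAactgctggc
Cdc20: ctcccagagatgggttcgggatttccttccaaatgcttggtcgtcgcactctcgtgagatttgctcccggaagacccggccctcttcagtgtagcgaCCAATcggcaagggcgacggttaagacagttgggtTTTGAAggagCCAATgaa
Top2a: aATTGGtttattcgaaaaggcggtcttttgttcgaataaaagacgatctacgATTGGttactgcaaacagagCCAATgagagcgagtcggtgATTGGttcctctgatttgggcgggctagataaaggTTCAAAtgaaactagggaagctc
Top2a, the topoisomerase that untangles replicated chromosomes, stood at 21.8, 32.4 and 32.3 CPM in 12-day bones, against 72.9, 106 and 125 CPM in naive bones (log2 fold change -1.81 ± 0.26, adjusted p = 0.00179), again without overlap. A match of letters is a description of these windows and not evidence of binding.

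Red cell precursor genes had the lowest median of the 46 lists. Of 25 erythroid genes tested, 24 fell and 0 rose (the number higher was 1 without naive library 1 or 12-day library 2), with a median of -2.17. Slc4a1, the anion exchanger band 3 of the red cell membrane, stood at 43.9, 79.1 and 147 CPM in 12-day bones, against 411, 427 and 758 CPM in naive bones (log2 fold change -2.56 ± 0.50, adjusted p = 0.00661). For Alas2, the first enzyme of haem synthesis in erythroblasts, 12-day bones held 41.2, 81.3 and 95.6 CPM and naive bones 249, 256 and 685 CPM (log2 fold change -2.45 ± 0.55, adjusted p = 0.0121). Epb42, which links band 3 to the membrane skeleton, stood at 2.82, 5.85 and 10.4 CPM in 12-day bones, against 25.9, 29.3 and 55.8 CPM in naive bones (log2 fold change -2.53 ± 0.54, adjusted p = 0.00975). In each of them the groups were apart, naive library 3 was the highest and 12-day library 1 the lowest. Epor, the erythropoietin receptor gene, stood at 5.69, 11 and 11.4 CPM in 12-day bones, against 18.9, 23.2 and 32.8 CPM in naive bones (log2 fold change -1.40 ± 0.28, adjusted p = 0.00652). Tfrc, the transferrin receptor gene through which dividing cells take up iron, fell less (-0.75 ± 0.15, adjusted p = 0.00629). The erythroid ubiquitin ligase gene Trim58 had the lowest fold change among the genes named by rule (-2.90 ± 0.44, adjusted p = 0.00203), followed by its relative Trim10 (-2.85 ± 0.49, adjusted p = 0.00386), and the theta globin gene Hbq1b (-2.64 ± 0.50, adjusted p = 0.00465) and Slfn14, an endoribonuclease gene known from reticulocytes (-2.61 ± 0.47, adjusted p = 0.00428), were close behind. Without naive library 3, the library richest in red cell RNA, 19 erythroid genes still fell, with a median of -1.55, and leaving out any 1 library left 16 to 24.

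GATA1, the master factor of red cell genes, binds the letters AGATAA. Of 18 erythroid genes with a promoter entry, 7 held AGATAA or its complement TTATCT in the 250 bases before the start (38.9%), against 11.4% of all genes. The 3 with the smallest adjusted p, picked after values were seen, are Tmcc2 (chr1:132367949-132368098, minus strand), Epor (chr9:21963577-21963726, minus strand) and Rhd (chr4:134864386-134864535, plus strand), shown with the motif in capitals.
Tmcc2: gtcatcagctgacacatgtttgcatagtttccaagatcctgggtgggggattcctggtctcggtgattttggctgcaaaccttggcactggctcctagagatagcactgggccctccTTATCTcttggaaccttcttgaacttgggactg
Epor: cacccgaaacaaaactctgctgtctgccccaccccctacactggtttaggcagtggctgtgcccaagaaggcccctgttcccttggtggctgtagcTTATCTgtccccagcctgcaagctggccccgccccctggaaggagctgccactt
Rhd: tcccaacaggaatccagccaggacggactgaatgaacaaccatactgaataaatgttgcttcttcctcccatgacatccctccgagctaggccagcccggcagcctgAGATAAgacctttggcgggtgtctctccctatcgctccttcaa
Tmcc2 stood at 39.4, 40.3 and 62.2 CPM in 12-day bones, against 151, 152 and 256 CPM in naive bones (log2 fold change -1.98 ± 0.30, adjusted p = 0.00217). Rhd, which encodes a Rhesus blood group protein, stood at 5.97, 9.32 and 16.3 CPM in 12-day bones, against 35, 39.3 and 70.5 CPM in naive bones (log2 fold change -2.20 ± 0.45, adjusted p = 0.00784). Neither gene had overlapping groups.

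**Figure D2:**
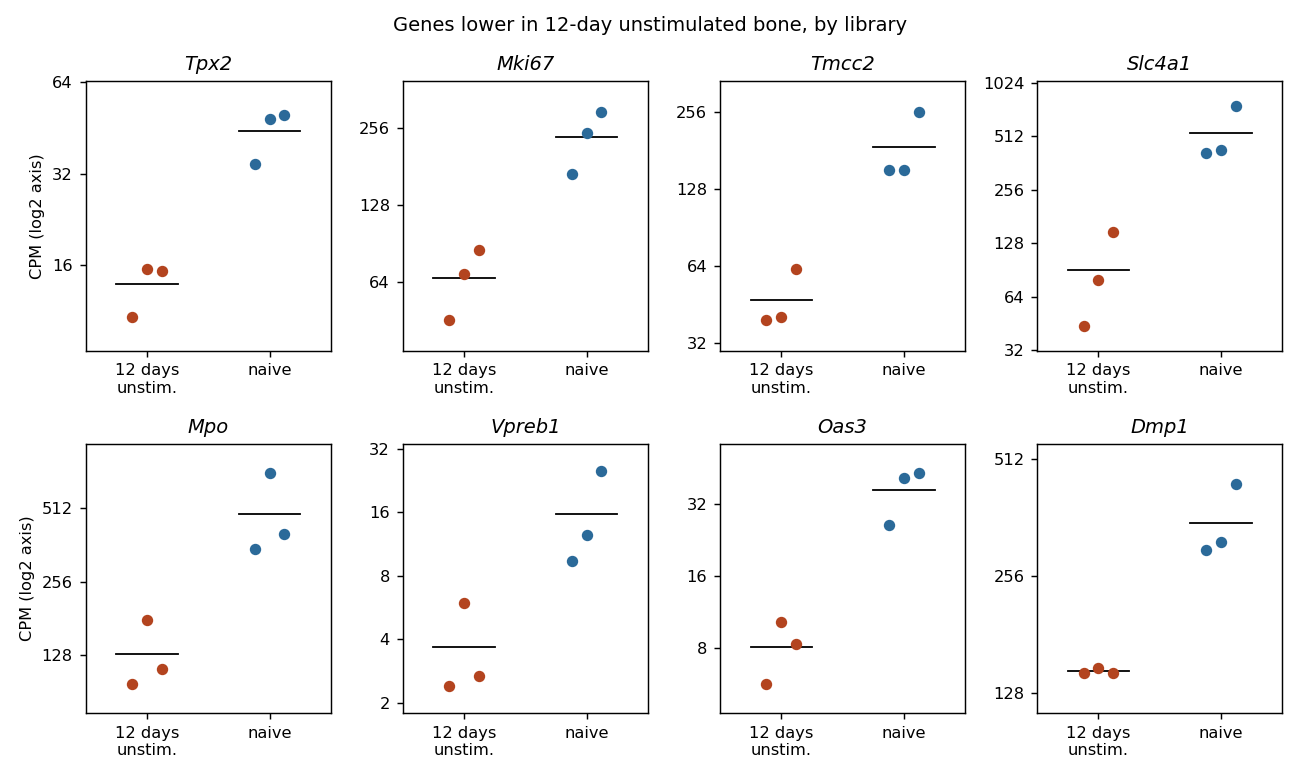
CPM of 8 genes in each library (points, log2 axis) of 12-day unstimulated and naive bone, with the mean of 3 as a line. The groups do not overlap in any panel, and 12-day libraries vary most for the red cell gene Slc4a1 (43.9, 79.1 and 147 CPM).

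The genes of granulocyte precursors fell as well. Among 15 genes of early granule stages, 11 fell and none rose (median -1.44). Mpo, myeloperoxidase of the primary granules, stood at 97.2, 178 and 111 CPM in 12-day bones, against 348, 713 and 402 CPM in naive bones (log2 fold change -1.92 ± 0.34, adjusted p = 0.00382). For Elane, neutrophil elastase, 12-day bones held 37.1, 57.4 and 36.9 CPM and naive bones 97.7, 213 and 145 CPM (log2 fold change -1.79 ± 0.33, adjusted p = 0.00493). In both genes naive library 2 was the highest of the 6 and the groups were apart. Cathepsin G, Ctsg (-1.92 ± 0.36, adjusted p = 0.00561), and Gfi1, a transcriptional repressor needed to make granulocytes (-1.43 ± 0.28, adjusted p = 0.00574), fell with them. Mature neutrophil genes had a median of -1.23 with 6 of 14 lower, a count that was 1 without naive library 2, 12-day library 1 or 12-day library 3 and 11 without 12-day library 2. Early granule genes took 0.189, 0.346 and 0.211% of counts in 12-day bones and 0.397, 0.823 and 0.46% in naive bones. Stfa3, a stefin that inhibits cathepsins and is known from neutrophils, stood at 2.73, 2.94 and 1.75 CPM in 12-day bones, against 8.98, 27.4 and 6.02 CPM in naive bones (log2 fold change -2.50 ± 0.57, adjusted p = 0.011), with naive library 2 again the highest.

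B lineage genes fell in the same bones. Of 23 tested, 16 fell and 1 rose (median -1.30); the number higher was 0 without naive library 1, naive library 2, 12-day library 2 or 12-day library 3. Vpreb1, a part of the surrogate light chain with which pre-B cells test their heavy chain, stood at 2.4, 5.93 and 2.69 CPM in 12-day bones, against 9.37, 12.4 and 25 CPM in naive bones (log2 fold change -2.05 ± 0.42, adjusted p = 0.00708). Its partner Igll1 stood at 1.74, 8.36 and 2.15 CPM in 12-day bones, against 12.3, 18.8 and 36.1 CPM in naive bones (log2 fold change -2.41 ± 0.57, adjusted p = 0.0138), and Vpreb3 also fell (-1.90 ± 0.41, adjusted p = 0.00905). The groups were apart for all of them, though 12-day library 2 lay well above the other 12-day libraries. Fewer B lineage genes were called when single libraries were left out, 7 without 12-day library 3, 9 without naive library 2 and 10 without 12-day library 1, and Igll1 had an adjusted p of 0.0507 without 12-day library 3. Immunoglobulin variable segments Ighv7-1 (-2.72 ± 0.70, adjusted p = 0.0207) and Igkv15-103 (-2.51 ± 0.64, adjusted p = 0.021) were among the 15 largest falls, but reads of variable segments can be shared among near-identical copies, so these are uncertain; Ighv7-1 had an adjusted p of 0.0588 to 0.0748 without naive library 2, 12-day library 1 or 12-day library 3, and Igkv15-103 had an adjusted p of 0.0532 to 0.0749 without naive library 2, 12-day library 1 or 12-day library 3.

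Calls among platelet and T cell genes rested on single libraries. Of 13 megakaryocyte and platelet genes, 8 fell (median -1.0), but the count was 0 without naive library 2, naive library 3, 12-day library 1 or 12-day library 3 and 3 without naive library 1. Itga2b, the platelet integrin gene, stood at 55.5, 115 and 67.3 CPM in 12-day bones, against 149.8, 137 and 149.6 CPM in naive bones (log2 fold change -0.87 ± 0.25, adjusted p = 0.0274), and Itga2b had an adjusted p of 0.0555 to 0.0937 without naive library 1, naive library 2, naive library 3, 12-day library 1 or 12-day library 3. T and NK cell genes had a median of -0.41, with 4 of 17 lower and 1 higher (0 without any 1 of the 6 libraries for members higher; 0 without naive library 2 or 12-day library 3 and 1 without naive library 3 or 12-day library 1 for members lower). Among haematopoietic progenitor genes, 4 rose and 4 fell of 11, the falls being 1 without naive library 2, 12-day library 1 or 12-day library 3 and 2 without naive library 3. The members that rose included Cd34 (1.26 ± 0.20, adjusted p = 0.00218) and Procr (2.17 ± 0.34, adjusted p = 0.0026), which blood vessels also express, while Mycn, a proliferation factor, fell (-1.01 ± 0.19, adjusted p = 0.00435).

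Interferon-stimulated genes were lower. Of 30 tested, 16 fell and none rose (median -0.62). Oas3, an enzyme that makes the messenger for RNase L, stood at 5.65, 10.2 and 8.29 CPM in 12-day bones, against 26.2, 41.1 and 43 CPM in naive bones (log2 fold change -2.18 ± 0.35, adjusted p = 0.00288). For Isg15, a ubiquitin-like modifier, 12-day bones held 6.26, 7.74 and 7.08 CPM and naive bones 17.3, 18.8 and 40.1 CPM (log2 fold change -1.85 ± 0.34, adjusted p = 0.00435). Cmpk2, a mitochondrial nucleotide kinase gene, stood at 10.3, 18.5 and 14.6 CPM in 12-day bones, against 27.3, 34.7 and 39 CPM in naive bones (log2 fold change -1.21 ± 0.23, adjusted p = 0.00445). The groups did not overlap, and Isg15 was far higher in naive library 3 than in the other naive bones, whereas Oas3 was not. Oasl2 fell too (-1.16 ± 0.23, adjusted p = 0.00661). With 1 library left out, 11 to 22 of these genes fell.

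Interferon-stimulated promoters are known for a response element bound by STAT and IRF factors, of which GAAACTG is a part of the common form. GAAACTG or its complement CAGTTTC was found in 12 of 23 interferon list promoters (52.2%), against 5.77% of all promoters, and 12 of the 23 genes were called, 5 of the 12 with the letters and 7 of the 11 without them. Shown are the 2 called genes of smallest adjusted p with it in the last 150 bases, Isg15 (chr4:156200819-156200968, minus strand) and Oas1a (chr5:120907526-120907675, minus strand), with those letters in capitals.
Isg15: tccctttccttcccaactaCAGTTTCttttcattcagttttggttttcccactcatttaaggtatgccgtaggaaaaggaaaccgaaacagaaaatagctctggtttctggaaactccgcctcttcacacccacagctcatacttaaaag
Oas1a: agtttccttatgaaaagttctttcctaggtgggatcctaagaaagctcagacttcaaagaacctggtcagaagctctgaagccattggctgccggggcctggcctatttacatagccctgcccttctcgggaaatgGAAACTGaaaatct
Oas1a stood at 5.6, 8.44 and 6.0 CPM in 12-day bones, against 11.1, 17.3 and 15.7 CPM in naive bones (log2 fold change -1.13 ± 0.26, adjusted p = 0.0103). Ifit1, which binds viral RNA, stood at 6.3, 8.9 and 7.53 CPM in 12-day bones, against 10.8, 10.6 and 15.9 CPM in naive bones (log2 fold change -0.71 ± 0.22, adjusted p = 0.0374), and Ifit1 had an adjusted p of 0.0549 to 0.154 without naive library 2, naive library 3, 12-day library 1 or 12-day library 3.

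Several genes of resident macrophages rose. Of 18 macrophage and monocyte genes, 8 rose and 1 fell (median 0.19) (4 without naive library 2 and 5 without naive library 1, 12-day library 1 or 12-day library 2 for members higher; 2 without naive library 1 and 3 without 12-day library 2 for members lower). The list was split, with 10 of the 18 above 0 and 8 below 0, and the genes named below all rose. Macrophage and monocyte genes took 0.0994% to 0.138% of counts in 12-day bones and 0.0947% to 0.111% in naive bones, with overlapping groups. Lyve1, a hyaluronan receptor of perivascular macrophages and lymphatic vessels, stood at 60, 57.9 and 60.3 CPM in 12-day bones, against 12.8, 7.77 and 15.9 CPM in naive bones (log2 fold change 2.29 ± 0.36, adjusted p = 0.00266). For Folr2, a folate receptor of resident macrophages, 12-day bones held 38.9, 31.2 and 26.1 CPM and naive bones 7.56, 6.18 and 8.63 CPM (log2 fold change 2.10 ± 0.30, adjusted p = 0.00179). Cd163, the scavenger receptor for haemoglobin, stood at 43.6, 50.5 and 34.3 CPM in 12-day bones, against 18.3, 13.6 and 17.7 CPM in naive bones (log2 fold change 1.37 ± 0.18, adjusted p = 0.00134). All 12-day bones were above all naive bones, with little spread among the 12-day bones for Lyve1. Cd14, the lipopolysaccharide co-receptor, rose (0.99 ± 0.17, adjusted p = 0.00303). Of Cd209b, a C-type lectin gene of macrophages that was low in all libraries, 12-day bones held 2.63, 2.29 and 1.39 CPM and naive bones 0.248, 0.187 and 0.452 CPM (log2 fold change 2.84 ± 0.51, adjusted p = 0.00368). Vsig4, a macrophage complement receptor gene, stood at 25.3, 41.9 and 23.2 CPM in 12-day bones, against 5.89, 2.72 and 4.82 CPM in naive bones (log2 fold change 2.75 ± 0.62, adjusted p = 0.0123); Vsig4 had an adjusted p of 0.0578 without naive library 2.

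Proteases of mast cells rose and a protease of basophils fell. Of the 14 genes on the eosinophil, basophil and mast cell list, 4 rose and 4 fell, where 10.1% of all genes tested rose and 11.7% fell. The counts were 2 without naive library 2 for rises and 2 without naive library 3 or 12-day library 3 for falls, nearer to those shares. Of Tpsb2, a mast cell tryptase gene, 12-day bones held 12.1, 7.46 and 10.5 CPM and naive bones 1.45, 1.73 and 3.06 CPM (log2 fold change 2.28 ± 0.43, adjusted p = 0.0048). Cma1, chymase, stood at 16.7, 9.6 and 8.78 CPM in 12-day bones, against 1.63, 1.92 and 3.81 CPM in naive bones (log2 fold change 2.26 ± 0.45, adjusted p = 0.00622), and Mcpt4 rose to a like extent (2.3 ± 0.51, adjusted p = 0.0105), but Mcpt4 had an adjusted p of 0.0517 without naive library 2. The basophil protease gene Mcpt8 stood at 2.16, 2.46 and 1.43 CPM in 12-day bones, against 4.86, 7.35 and 8.08 CPM in naive bones (log2 fold change -1.73 ± 0.31, adjusted p = 0.00355). The groups were apart for each.

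Several bone-forming genes fell. Of 24 osteoblast and matrix genes, 8 fell and none rose (median -0.28), a count that was 5 without naive library 3. Col1a1, the main chain of bone collagen, stood at 28663, 31248 and 28256 CPM in 12-day bones, against 44729, 48771 and 46558 CPM in naive bones (log2 fold change -0.67 ± 0.14, adjusted p = 0.00612). Smpd3, a sphingomyelinase gene needed for mineralisation, stood at 202, 210.4 and 198 CPM in 12-day bones, against 299, 363 and 335 CPM in naive bones (log2 fold change -0.71 ± 0.12, adjusted p = 0.00324). The groups lay apart, with little spread inside each. The lineage factors Runx2 (-0.44 ± 0.10, adjusted p = 0.00827) and Sp7 (-0.41 ± 0.11, adjusted p = 0.018) fell by less than 0.5 on the log2 scale, and Sp7 had an adjusted p of 0.0543 to 0.0648 without naive library 2, naive library 3 or 12-day library 3. The osteocalcin gene Bglap stood at 2268, 1976 and 1642 CPM in 12-day bones, against 1781, 2479 and 2665 CPM in naive bones (log2 fold change -0.23 ± 0.19, adjusted p = 0.408) and was not called, with overlapping groups.

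Osteocyte genes did not move together. Dmp1, a matrix phosphoprotein of osteocytes, stood at 144, 149 and 145 CPM in 12-day bones, against 298, 313 and 442 CPM in naive bones (log2 fold change -1.27 ± 0.23, adjusted p = 0.00375); the 3 12-day bones were close together and all below the naive ones. Sost, the gene of the Wnt inhibitor sclerostin, stood at 18.4, 20.8 and 27.6 CPM in 12-day bones, against 25.3, 23.6 and 29.9 CPM in naive bones (log2 fold change -0.24 ± 0.35, adjusted p = 0.67), and the groups overlapped. Kcnk2, a mechanosensitive potassium channel gene, fell (-0.56 ± 0.12, adjusted p = 0.00703), while Capg, an actin-capping protein gene shared with macrophages, rose (0.48 ± 0.12, adjusted p = 0.0179); Capg had an adjusted p of 0.0578 to 0.0637 without naive library 2 or 12-day library 1. In all, 2 of 12 osteocyte genes rose and 3 fell (0 without naive library 2 or 12-day library 1 and 1 without naive library 1, naive library 3 or 12-day library 3 for members higher).

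Several genes of bone resorption fell. None of the 18 osteoclast genes was above 0, 9 fell (median -0.58), and the count was 3 without naive library 2, naive library 3 or 12-day library 3, 4 without 12-day library 1 and 5 without 12-day library 2. Itgb3, the integrin chain by which osteoclasts attach, stood at 118, 179 and 138 CPM in 12-day bones, against 269, 271 and 325 CPM in naive bones (log2 fold change -0.99 ± 0.19, adjusted p = 0.00513). Mmp9, a gelatinase of osteoclasts and neutrophils, stood at 1322, 1427 and 1126 CPM in 12-day bones, against 2081, 1934 and 2401 CPM in naive bones (log2 fold change -0.73 ± 0.17, adjusted p = 0.0111). Car2, the carbonic anhydrase that supplies acid to osteoclasts and is abundant in red cells, stood at 37.5, 53 and 89.2 CPM in 12-day bones, against 181, 201 and 363 CPM in naive bones (log2 fold change -2.05 ± 0.45, adjusted p = 0.0101). The groups were apart for these. The tartrate-resistant phosphatase gene Acp5 stood at -0.52 ± 0.22, adjusted p = 0.112 and cathepsin K, Ctsk, at -0.60 ± 0.23, adjusted p = 0.0843, and neither was called. Upstream of osteoclasts, Tnfsf11, the gene of RANKL, stood at 6.92, 5.87 and 6.72 CPM in 12-day bones, against 8.45, 8.38 and 15.9 CPM in naive bones (log2 fold change -0.75 ± 0.25, adjusted p = 0.0532) and missed the threshold; without naive library 1 it passed, at an adjusted p of 0.0332. Its decoy receptor osteoprotegerin, Tnfrsf11b, stood at 28.7, 27.5 and 28.5 CPM in 12-day bones, against 15.3, 18.2 and 17.3 CPM in naive bones (log2 fold change 0.74 ± 0.28, adjusted p = 0.0858), not called although the groups did not overlap. The macrophage colony factor genes Csf1 (0.59 ± 0.10, adjusted p = 0.00325) and Il34 (0.69 ± 0.13, adjusted p = 0.00379) rose.

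Cartilage and joint surface genes went both ways. Of 22 cartilage genes, 3 rose and 4 fell (median -0.65), the falls being 2 without naive library 2, 12-day library 1 or 12-day library 3. These counts stand beside 10.1% of all genes tested that rose and 11.7% that fell. Prg4, lubricin of joint surfaces and tendon sheaths, stood at 3529, 6702 and 4395 CPM in 12-day bones, against 692, 516 and 811 CPM in naive bones (log2 fold change 2.86 ± 0.56, adjusted p = 0.00638). For Chad, chondroadherin, 12-day bones held 1927, 1914 and 1399 CPM and naive bones 533, 573 and 657 CPM (log2 fold change 1.57 ± 0.27, adjusted p = 0.00294). The minor fibrillar collagen genes Col11a1 (-0.76 ± 0.14, adjusted p = 0.00413) and Col11a2 (-0.70 ± 0.13, adjusted p = 0.00404) fell. Of the cartilage matrilin gene Matn1, 12-day bones held 0.0941, 0.48 and 0.358 CPM and naive bones 1.06, 1.55 and 2.86 CPM (log2 fold change -2.44 ± 0.67, adjusted p = 0.0225), and Matn1 had an adjusted p of 0.0517 to 0.0839 without naive library 2, naive library 3, 12-day library 1 or 12-day library 3. None of these genes had overlapping groups.

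Most fibroblast genes shared with tendon rose. Of 19 tendon fibroblast genes, 13 rose and 1, Col1a1, fell (median 1.22), the rises being 5 without naive library 2, 6 without 12-day library 1 and 7 without naive library 3. The share of counts of the whole list, Col1a1 included, was lower in 12-day bones. It was 4.79, 4.80 and 4.36% there and 5.39, 5.57 and 5.25% in naive bones, with the groups apart. Dcn, the collagen-binding proteoglycan decorin, stood at 4737, 3560.4 and 3005 CPM in 12-day bones, against 1466, 1415 and 1552 CPM in naive bones (log2 fold change 1.35 ± 0.18, adjusted p = 0.00141). For Ly6a, the surface marker Sca-1, 12-day bones held 367, 249 and 229.8 CPM and naive bones 89.1, 63.6 and 89.7 CPM (log2 fold change 1.80 ± 0.31, adjusted p = 0.00359). Angptl7, a secreted angiopoietin-like protein gene, stood at 764, 635 and 478 CPM in 12-day bones, against 168, 80.3 and 62.7 CPM in naive bones (log2 fold change 2.59 ± 0.55, adjusted p = 0.00955). All 12-day bones exceeded all naive bones, and 12-day library 1 was the highest of them for each. Keratinocyte genes, which mark skin, took 0.0145, 0.0193 and 0.0166% of counts in 12-day bones and 0.00941, 0.00777 and 0.00795% in naive bones, and 3 of 13 tested rose while 1 fell (0 without naive library 2, naive library 3, 12-day library 1 or 12-day library 3 for members lower). Of Krtdap, a keratinocyte differentiation gene, 12-day bones held 9.74, 7.79 and 6.23 CPM and naive bones 1.28, 1.08 and 1.76 CPM (log2 fold change 2.53 ± 0.36, adjusted p = 0.00168), and Sbsn (1.79 ± 0.31, adjusted p = 0.00379) and the plakophilin gene Pkp1 (1.95 ± 0.50, adjusted p = 0.0194) rose as well, while Pkp1 had an adjusted p of 0.0523 to 0.0723 without naive library 2, naive library 3 or 12-day library 2. Ly6d was the member that fell (-1.33 ± 0.38, adjusted p = 0.0281), and Ly6d had an adjusted p of 0.0584 to 0.0997 without naive library 2, naive library 3, 12-day library 1 or 12-day library 3. Their part, and that of the muscle genes given above, in the rise of fibroblast genes was not tested. Over all genes tested 10.1% rose and 11.7% fell, and of 24 collagen genes 4 rose and 5 fell (median 0.01), the falls including Col1a1 and Col24a1 (-0.51 ± 0.12, adjusted p = 0.0108), and the rises were 0 without naive library 2, naive library 3 or 12-day library 1, 1 without 12-day library 3 and 2 without naive library 1. Among 28 collagen processing genes 2 rose and 1 fell (1 without naive library 2 or 12-day library 1 for members higher; 0 without naive library 3 or 12-day library 3 for members lower), a smaller share each way than over all genes. Those that rose were Pcolce2, an enhancer of procollagen cleavage (1.07 ± 0.23, adjusted p = 0.00871), and the prolyl hydroxylase gene P3h2 (0.58 ± 0.15, adjusted p = 0.016); P3h2 had an adjusted p of 0.0601 to 0.0747 without naive library 2 or 12-day library 1. The lysyl oxidase gene Loxl4 fell (-0.67 ± 0.17, adjusted p = 0.0179), and Loxl4 had an adjusted p of 0.0619 to 0.0696 without naive library 3 or 12-day library 3.

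Matrix-degrading enzymes and their inhibitors rose in part. Of 22 tested, 6 rose and 2 fell (median 0.45). Adamts5, an aggrecan-cleaving protease gene, stood at 79.3, 91.3 and 63.7 CPM in 12-day bones, against 32.6, 33.2 and 39.5 CPM in naive bones (log2 fold change 1.15 ± 0.19, adjusted p = 0.00269). For Timp3, an inhibitor of such proteases, 12-day bones held 379.8, 450.0 and 436 CPM and naive bones 277, 214 and 249.6 CPM (log2 fold change 0.77 ± 0.12, adjusted p = 0.0023). Timp4 (1.77 ± 0.31, adjusted p = 0.00351) and the macrophage elastase gene Mmp12 (2.20 ± 0.47, adjusted p = 0.00787) also rose, the Mmp12 level staying under 2 CPM. The groups did not overlap.

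Several fat cell genes rose. All 20 adipocyte genes had a fold change above 0 and 9 were called (median 0.78), a count that was 4 without naive library 2. Retn, the adipokine resistin, stood at 49.9, 56.5 and 49.7 CPM in 12-day bones, against 15.2, 6.84 and 16.3 CPM in naive bones (log2 fold change 2.03 ± 0.28, adjusted p = 0.00168). For Cfd, adipsin of the complement pathway, 12-day bones held 1479, 1586 and 1243 CPM and naive bones 589.8, 425 and 939 CPM (log2 fold change 1.14 ± 0.26, adjusted p = 0.0101). Pnpla2, the lipase that starts triglyceride breakdown, stood at 297, 347 and 325 CPM in 12-day bones, against 199.8, 129 and 174 CPM in naive bones (log2 fold change 0.95 ± 0.19, adjusted p = 0.00511). The 12-day bones were close together while the naive bones spread, naive library 2 being the lowest in each. The lipid droplet gene Plin4 (1.10 ± 0.20, adjusted p = 0.00396) and the adipokine gene Adipoq (0.94 ± 0.23, adjusted p = 0.0141) rose too, and Adipoq had an adjusted p of 0.0515 without naive library 2. Adipocyte genes took 0.78, 0.986 and 0.934% of counts in 12-day bones and 0.585, 0.38 and 0.588% in naive bones.

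Several complement genes rose. Of 24 complement and acute-phase genes, 13 rose and none fell (median 0.78); 9 to 14 rose with 1 library left out, and the number that fell was 1 without naive library 1 and 4 without 12-day library 2. C7, a part of the membrane attack complex, stood at 52.1, 29.8 and 29.7 CPM in 12-day bones, against 4.51, 0.749 and 2.31 CPM in naive bones (log2 fold change 3.84 ± 0.51, adjusted p = 0.00168). For Serping1, the C1 inhibitor, 12-day bones held 707, 623 and 465 CPM and naive bones 220.2, 164 and 211 CPM (log2 fold change 1.59 ± 0.25, adjusted p = 0.00215). C1s1, a protease of the first complement component, stood at 137, 109.7 and 115 CPM in 12-day bones, against 54.2, 36.7 and 46.2 CPM in naive bones (log2 fold change 1.40 ± 0.23, adjusted p = 0.00266), and its partner C1ra rose as well (1.13 ± 0.21, adjusted p = 0.00404). The groups were apart, and the naive libraries differed most for C7. Among cytokines and chemokines 5 of 27 rose, led after Il34 by the lymphatic chemokine gene Ccl21a (2.34 ± 0.44, adjusted p = 0.00518), and 1 fell (3 without naive library 2 or 12-day library 1 for members higher; 0 without naive library 2, naive library 3, 12-day library 1 or 12-day library 3, 2 without naive library 1 and 3 without 12-day library 2 for members lower).

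**Figure D3:**
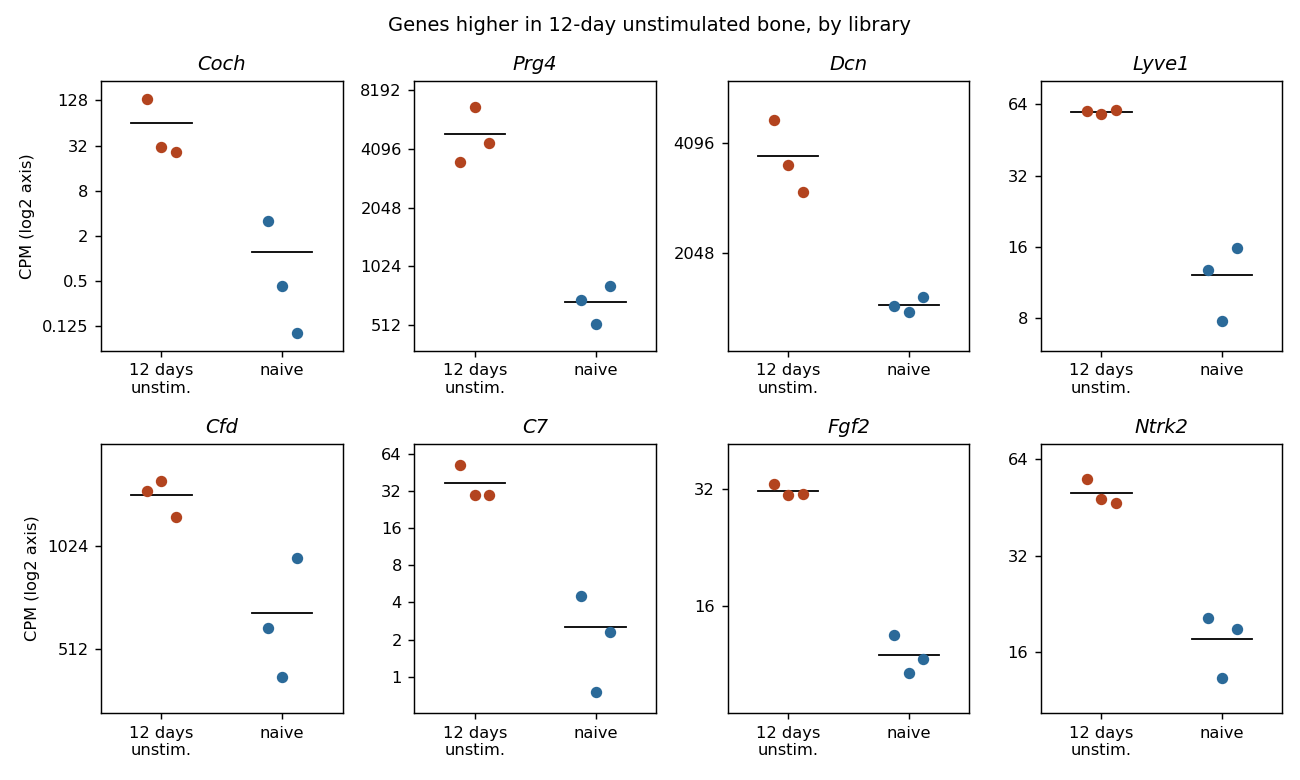
CPM of 8 genes in each library (points, log2 axis) of 12-day unstimulated and naive bone, with the mean of 3 as a line. In every panel the 3 12-day bones lie above the 3 naive bones, by the widest margin for Coch (135, 30.2 and 25.9 CPM in 12-day bones against 3.16, 0.421 and 0.10 CPM in naive bones).

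Several signalling genes that act on bone and connective tissue rose. In the TGF-beta and BMP pathway 14 of 34 rose and 2 fell (median 0.30). Tgfbr3, the co-receptor betaglycan, stood at 93.8, 102 and 90.5 CPM in 12-day bones, against 55.5, 51.8 and 61.4 CPM in naive bones (log2 fold change 0.77 ± 0.09, adjusted p = 0.0010). The secreted antagonists of activin and BMP, follistatin (Fst, 0.92 ± 0.13, adjusted p = 0.00153) and chordin (Chrd, 0.86 ± 0.13, adjusted p = 0.00173), rose, and the ligand gene Bmp7 fell (-0.83 ± 0.14, adjusted p = 0.00271). In the Wnt pathway 9 of 37 rose and 3 fell (median 0.35; 4 without naive library 2 for members higher; 1 without 12-day library 3 for members lower). Dkk2, a secreted Wnt antagonist, stood at 41.9, 31.7 and 24.1 CPM in 12-day bones, against 10.5, 5.95 and 11 CPM in naive bones (log2 fold change 1.83 ± 0.26, adjusted p = 0.00175), and the ligand genes Wnt11 (1.14 ± 0.19, adjusted p = 0.00249) and Wnt10b (0.55 ± 0.12, adjusted p = 0.00723) and the receptor gene Lrp6 (0.41 ± 0.07, adjusted p = 0.00375) rose. The groups were apart for all these genes.

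Several growth factor genes rose. In the insulin-like growth factor axis 7 of 20 rose and none fell (median 0.33). Igfbp6, which binds IGF-II, stood at 565, 375 and 342 CPM in 12-day bones, against 146, 109.9 and 117 CPM in naive bones (log2 fold change 1.78 ± 0.22, adjusted p = 0.00108). For Igfbp5, the IGF-binding protein of bone matrix, 12-day bones held 1322, 1387 and 1228 CPM and naive bones 781, 679 and 765 CPM (log2 fold change 0.82 ± 0.14, adjusted p = 0.00315). The growth hormone receptor gene Ghr (0.66 ± 0.12, adjusted p = 0.00404) and Stc2, the gene of a stanniocalcin that curbs IGF release (1.17 ± 0.15, adjusted p = 0.00116), rose. Among angiogenic factors 3 of 16 rose and 1 fell, where 10.1% of all genes tested rose and 11.7% fell. Fgf2, a fibroblast growth factor, stood at 33, 30.9 and 31.1 CPM in 12-day bones, against 13.5, 10.8 and 11.7 CPM in naive bones (log2 fold change 1.40 ± 0.14, adjusted p = 0.000573), and the lymphatic growth factor gene Vegfd rose too (1.82 ± 0.24, adjusted p = 0.00137). The semaphorin and VEGF co-receptor gene Nrp2 was the member that fell (-0.46 ± 0.11, adjusted p = 0.0121). Of 20 neurotrophic and axon guidance genes, 8 rose and 3 fell, the rises being 5 without naive library 2. Ntrk2, the receptor of the neurotrophin BDNF, stood at 55.4, 47.9 and 46.7 CPM in 12-day bones, against 20.5, 13.3 and 18.9 CPM in naive bones (log2 fold change 1.51 ± 0.16, adjusted p = 0.000573). Its relative Ntrk3 (1.94 ± 0.29, adjusted p = 0.00209) and the semaphorin gene Sema3c (1.36 ± 0.21, adjusted p = 0.00215) rose too. In none of the genes of this paragraph did the groups overlap.

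Several clock and hormone-responsive genes rose. All 20 circadian clock genes had a fold change above 0 and 9 rose (median 0.52), a count that was 5 without naive library 2. Clock, an activator of the cycle, stood at 30.1, 28.1 and 26.1 CPM in 12-day bones, against 21.4, 18.7 and 19 CPM in naive bones (log2 fold change 0.51 ± 0.09, adjusted p = 0.00271). For Rora, a nuclear receptor that drives Bmal1, 12-day bones held 57, 48.4 and 51.3 CPM and naive bones 30.4, 25.9 and 26.4 CPM (log2 fold change 0.92 ± 0.13, adjusted p = 0.00154). The repressor gene Bhlhe41 (0.65 ± 0.13, adjusted p = 0.00662) and the output factor gene Hlf (0.74 ± 0.17, adjusted p = 0.00971) rose as well. The labels give no time of day at collection, and its part was not tested. Of 20 glucocorticoid-responsive genes 7 rose and none fell (median 0.70; 2 without naive library 2 and 4 without naive library 1 or 12-day library 1 for members higher; 1 without 12-day library 2 for members lower). Klf9, a stress-hormone target, stood at 96.9, 114 and 122 CPM in 12-day bones, against 56.1, 54.5 and 56.4 CPM in naive bones (log2 fold change 1.0 ± 0.15, adjusted p = 0.00179). Mt2, a metal-binding metallothionein gene, stood at 240.2, 77.9 and 90.7 CPM in 12-day bones, against 24.1, 18.4 and 25.9 CPM in naive bones (log2 fold change 2.58 ± 0.57, adjusted p = 0.0118); 12-day library 1 was the highest, and Mt2 had an adjusted p of 0.0555 without naive library 2. The groups did not overlap for these genes. Heat shock genes gave 2 higher and 1 lower of 20 (1 without naive library 2 or 12-day library 3 and 4 without naive library 1 for members higher), with rises at about the share of 10.1% over all genes: Hspa1b rose (1.39 ± 0.22, adjusted p = 0.00218) and Hsp90aa1 fell (-0.53 ± 0.11, adjusted p = 0.0053).

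The other lists had few calls or calls that rested on single libraries. Their counts stand beside 10.1% of all genes tested that rose and 11.7% that fell. Rises among Schwann cell and endothelial genes and falls among glycolysis genes were near those shares. None of 30 muscle fibre genes and none of 28 nuclear respiratory chain genes was called, with medians of 0.67 and 0.18, while the number of respiratory chain genes higher was 3 without 12-day library 2. With 1 library left out, the muscle fibre median ranged from 0.129 to 1.61. Acta1, the muscle actin named in the genotype, stood at 4165, 1881 and 4133 CPM in 12-day bones, against 4209, 2157 and 31.5 CPM in naive bones (log2 fold change 0.67 ± 1.11, adjusted p = 0.707), with naive library 3 far below the rest. Pericyte and smooth muscle genes had a median of 0.68 with 6 of 13 higher, a count that was 0 without naive library 2 or 12-day library 3 and 1 without naive library 3. Schwann cell genes had 2 of 16 higher, led by the sodium channel gene Scn7a (1.61 ± 0.32, adjusted p = 0.0061), a count that was 1 without naive library 2, naive library 3, 12-day library 1 or 12-day library 3 and 4 without naive library 1. Endothelial genes had 2 of 21 higher and 0 lower (median 0.12; 0 without naive library 2, 1 without 12-day library 2 or 12-day library 3 and 4 without 12-day library 1 for members higher; 3 without 12-day library 2 for members lower). Glycolysis and hypoxia genes had 4 higher and 2 lower of 25, the mitophagy gene Bnip3 among those that rose (0.99 ± 0.19, adjusted p = 0.00523), and the number lower was 1 without naive library 2, naive library 3, 12-day library 1 or 12-day library 3 and 4 without naive library 1. Targets of YAP, TEAD and SRF had 5 higher and 1 lower of 20, led by the receptor kinase gene Axl (0.74 ± 0.12, adjusted p = 0.00262), counts that were 2 without naive library 2 or 12-day library 3 for members higher; 0 without naive library 1, naive library 2, naive library 3 or 12-day library 3 for members lower.

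The largest single rises lay partly outside these lists. Coch, the secreted matrix protein cochlin known from the inner ear, stood at 135, 30.2 and 25.9 CPM in 12-day bones, against 3.16, 0.421 and 0.10 CPM in naive bones (log2 fold change 5.56 ± 1.44, adjusted p = 0.0221); Coch had an adjusted p of 0.0546 to 0.0904 without naive library 2, naive library 3 or 12-day library 1. For Cyp2e1, a cytochrome P450 gene, 12-day bones held 129, 183 and 191 CPM and naive bones 20.8, 3.28 and 36.1 CPM (log2 fold change 3.06 ± 0.63, adjusted p = 0.00889). Inmt, an N-methyltransferase gene, stood at 17.2, 26.6 and 32.4 CPM in 12-day bones, against 4.22, 2.95 and 2.21 CPM in naive bones (log2 fold change 3.0 ± 0.31, adjusted p = 0.000573). Groups without overlap were a condition for naming these genes, so that the 12-day bones were all above the naive bones is no separate result. Naive library 2 was far lower than the other naive bones for Cyp2e1, and 12-day library 1 far higher than the other 12-day bones for Coch. The rest of the 15 largest rises that were not given above were the serpin gene Serpina3m (2.81 ± 0.52, adjusted p = 0.00438), the phospholipase genes Pla2g2e (2.63 ± 0.59, adjusted p = 0.0102) and Pla1a (2.49 ± 0.52, adjusted p = 0.00902), the glutathione transferase gene Gsta3 (2.63 ± 0.46, adjusted p = 0.00315) and the chemerin receptor gene Gpr1 (2.62 ± 0.52, adjusted p = 0.00646). Falls of that size not given above were those of Sowaha (-2.61 ± 0.48, adjusted p = 0.00419), the glutamine transporter gene Slc38a5 (-2.42 ± 0.47, adjusted p = 0.00554) and the disulfide isomerase gene Pdia2, under 4 CPM throughout (-2.47 ± 0.58, adjusted p = 0.0118). On GRCm38 the protein-coding genes with the largest rise and fall are Coch (ENSMUSG00000020953, chromosome 12, 51593341 to 51605771) and Trim58 (ENSMUSG00000037124, chromosome 11, 58640465 to 58652404).

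Against unstimulated bones at 5 days, which gives a comparison without the naive libraries, no gene was called in 12-day unstimulated bones: 0 of 18851 (0%) at an adjusted p under 0.05, with 2375 at an unadjusted p under 0.05. DESeq2 called 265 and limma-voom 19, and 20 were called without library 3 of the 5-day group, which then consisted of the summed pair alone. Intervals of the 12-day minus 5-day difference were wide. They are not adjusted for the number of genes, so one that leaves out 0 is not a call. Except for Mki67, the genes were named by their change from naive in the same 12-day libraries. The values are therefore no independent evidence of a change from 5 to 12 days. For Mki67 it was -1.15, 95% interval -1.88 to -0.43, for Slc4a1 -2.05, 95% interval -3.21 to -0.89, for Dcn 0.63, 95% interval 0.19 to 1.08, for Lyve1 0.44, 95% interval -0.39 to 1.27 and for Fgf2 0.40, 95% interval 0.07 to 0.74. By list, scores (mean log2 CPM over the list) followed different courses over naive, 5-day and 12-day unstimulated bones. Cell cycle scores were 5.14, 5.56 and 5.80 in naive bones, 4.99 and 4.82 at 5 days and 3.60, 4.10 and 4.18 at 12 days, with no overlap between any of the 3 groups. Tendon fibroblast scores were 7.20, 6.81 and 6.37 in naive bones, 7.69 and 8.21 at 5 days and 8.31, 7.75 and 7.87 at 12 days, so that the 5-day bones lay within or near the 12-day range and above the naive one. The osteoblast scores were lowest at 5 days, 8.32 and 8.03, against 8.56, 8.77 and 8.78 in naive bones and 8.57, 8.40 and 8.34 at 12 days.

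**Figure D4:**
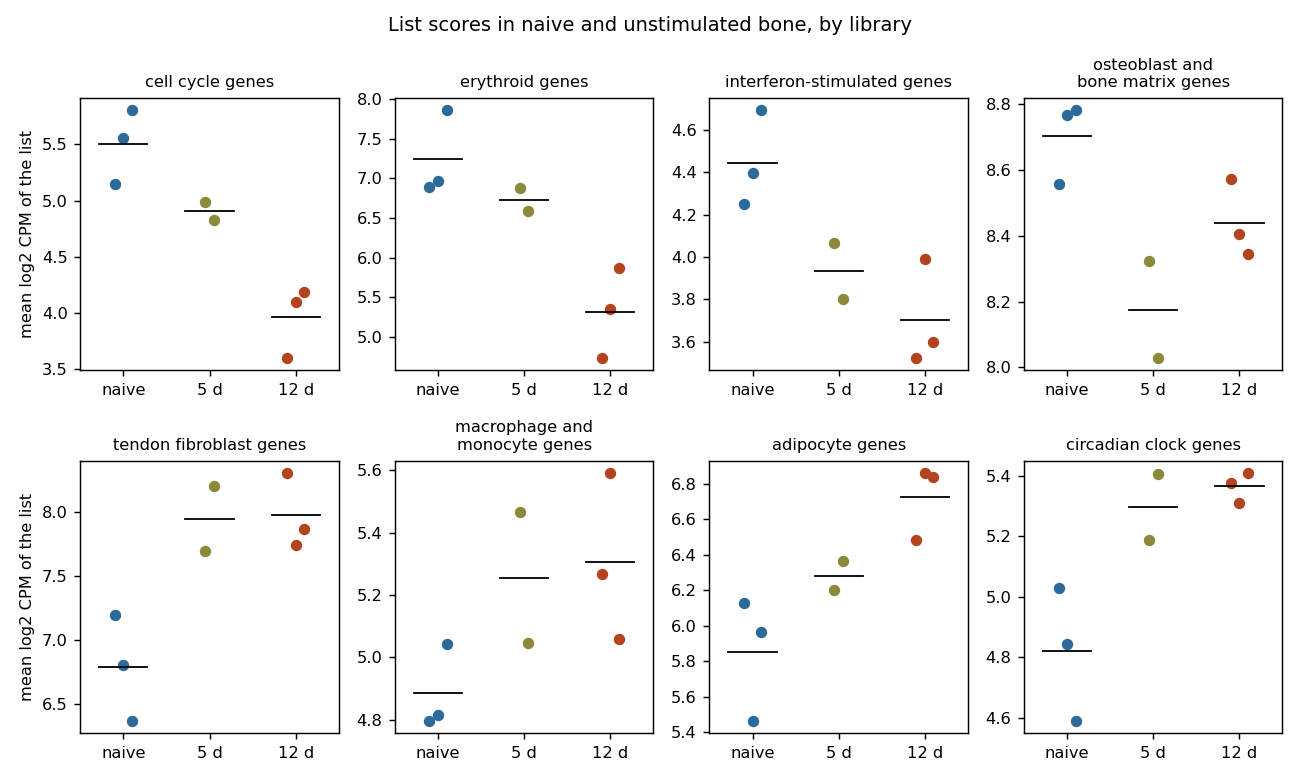
Mean log2 CPM of 8 gene lists in each bone library (points; line, group mean) in naive bone and in unstimulated bone at 5 and 12 days, the 5-day group having 2 libraries after its near-identical pair was summed. Cell cycle and erythroid scores are lowest at 12 days, and tendon fibroblast and clock scores are above the naive range at both days.

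Set against the same naive libraries, bones at 5 days without stimulation had 82 genes called (0.435%), 72 higher (0.382%) and 10 lower (0.053%). That group held 2 libraries after its near-identical pair was summed, against 3 in each 12-day group, so its count cannot be compared directly with theirs. Bones at 12 days with stimulation had 856 (4.54%), 393 higher (2.08%) and 463 lower (2.46%). Because these share the naive libraries with the 12-day unstimulated comparison, only their values are given. Mki67 had a log2 fold change of -1.84 in 12-day unstimulated, -1.06 in 12-day stimulated and -0.69 in 5-day unstimulated bones, each over naive. For Slc4a1 these were -2.56, -1.57 and -0.51. For Prg4 they were 2.86, 1.83 and 1.98, and for Coch 5.56, 5.84 and 6.62. Between stimulated and unstimulated bones at 12 days 7 genes were called, all lower with stimulation (0.0371% of genes tested), of which Stc2 is named above.

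The change between 12-day unstimulated and naive samples differed between bone and tendon. In a fit of both tissues 3171 of 19845 genes tested (16%) had a different log2 change, 1863 (9.39%) more positive in bone and 1308 (6.59%) more negative. With DESeq2's size factors the split was 1717 and 1727, so its balance depends on the scaling. In tendon itself 3777 genes were called (19%), 1444 higher (7.28%) and 2333 lower (11.8%). Tendon fibroblast genes showed the clearest contrast: 18 of 19 had a more positive change in bone, and in tendon itself 12 fell and none rose. Adipocyte genes (12 of 20), collagens (15 of 24) and TGF-beta and BMP genes (18 of 34) also had more positive changes in bone. Of the cell cycle genes 7 of 32 had a more negative change in bone, and 15 fell in tendon as well. Muscle fibre genes took 25.5% to 26.7% of counts in 12-day unstimulated tendons and 16.7% to 20.8% in naive tendons, more than in any bone library. Osteoblast genes took 0.545% to 1.31% of counts in 12-day unstimulated tendons and 2.22% to 5.34% in naive tendons. The part of either in the differences between tissues was not tested.

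Single genes, named for their change in bone, give the size of the contrast for those genes. The same bone libraries enter the difference, so this choice favoured a large one. Dcn changed by 1.35 in bone, and in tendon by -1.02 ± 0.32 (adjusted p = 0.0316), a difference of 2.33 ± 0.46, adjusted p = 0.00185. For Lyve1 the difference was 3.80 ± 0.52, adjusted p = 0.000215, with a tendon change of -1.55 ± 0.39 (adjusted p = 0.00914). For Fgf2 it was 2.40 ± 0.27, adjusted p = 8.95e-05, with a tendon change of -1.05 ± 0.19 (adjusted p = 0.00111). Each of these genes rose in bone and fell in tendon. Prg4 likewise had a tendon change of -1.80 ± 0.59 (adjusted p = 0.0377) and a difference of 4.62 ± 0.85, adjusted p = 0.00133. In the other direction, Isg15 had a tendon change of -0.42 ± 0.31 (adjusted p = 0.375) and a difference of -1.47 ± 0.43, adjusted p = 0.022. Tmcc2 had a tendon change of 0.55 ± 0.22 (adjusted p = 0.0885) and a difference of -2.56 ± 0.32, adjusted p = 0.000126.

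**Figure D5:**
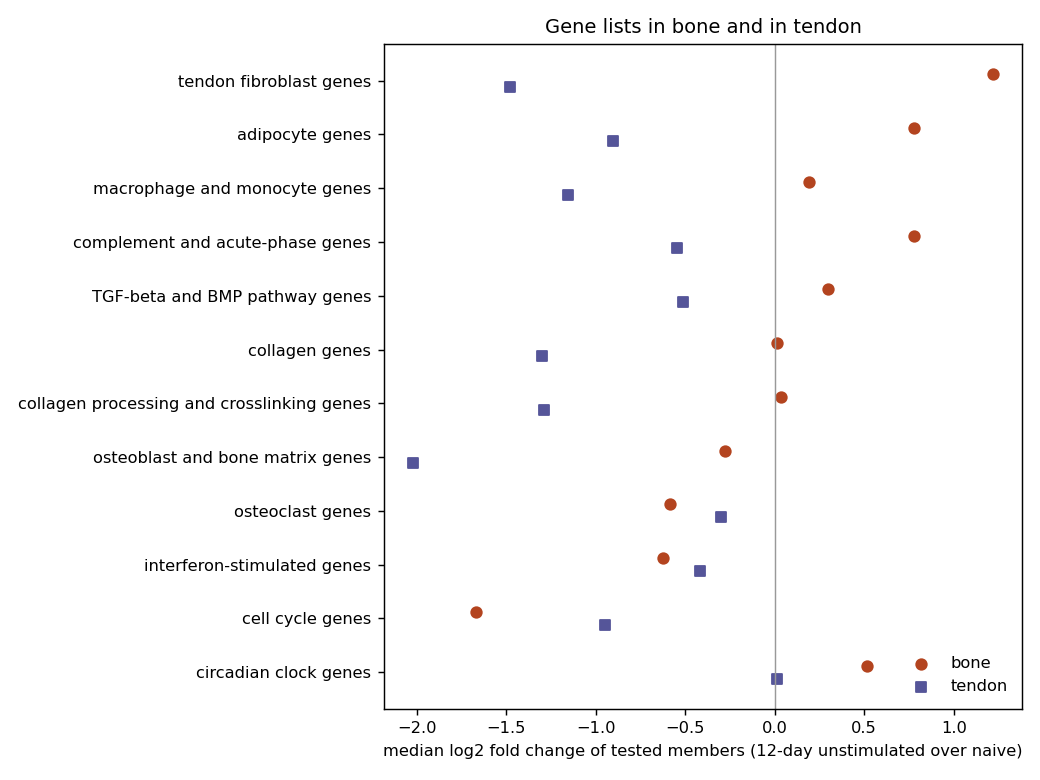
Median log2 fold change (x axis, 12-day unstimulated over naive) of 12 gene lists in bone (circles) and in tendon (squares). Tendon fibroblast genes stand at 1.22 in bone and -1.48 in tendon, and cell cycle genes lie below 0 in both tissues.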

How the data were processed

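RNA of 30 mouse tissue samples, 15 of calcaneus and 15 of Achilles tendon, was sequenced from poly-A libraries, per the labels' protocols. Per the submitters' processing notes the authors used cutadapt 2.3, FastQC 0.11.8, STAR 2.7.8a, RSEM 1.3.3 and MultiQC 1.7 with GRCm38; no annotation release or strand setting is named there. Expected counts from RSEM, 1 value a gene, are what the authors deposited, and in them reads of near-identical genes are shared by estimate. The deposited values were already whole, so rounding changed none. Of 55426 gene IDs, 99.5% matched GENCODE M21. Antisense and overlapping genes cannot be told apart without the strand setting.

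The test was edgeR's (version 4.0.16, R 4.3.3) after TMM scaling, with filterByExpr (minimum count 10, minimum total 15) and a robust quasi-likelihood fit of 14 bone libraries (29 for bone minus tendon), with Benjamini-Hochberg adjustment and a threshold of 0.05. The standard error is the fold change over the square root of F. Levels are CPM with TMM scaling; scores use log2 CPM with a prior count of 2. Depth was 20.8 to 35.0 M counts in the 6 libraries compared. Xist was at most 0.288 CPM and Ddx3y at least 29.2 CPM in all bone libraries. The labels do not tie replicates to separate mice; what p-values measure is how much the samples vary, and that variation may be technical only. Alternatives were DESeq2 1.42.0 (Wald test and size factors), limma-voom (limma 3.58.1) with quality weights, other scaling, filtering and samples, a replicate block, and leaving out each library. The procedure was tested on simulated data.

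The text names the 15 genes with the largest change each way that passed the threshold, had no overlap between groups and averaged 1 CPM or more, without predicted genes, pseudogenes and sex-linked genes, up to 4 genes of each of 46 lists by smallest adjusted p (a list member that this would name is not reported here), 11 genes in every case, and further genes, promoters and motifs picked after values were seen. Members, lists and rules were chosen with earlier results of these data known. Lists carry counts and medians and no test. Promoters were read from RefSeq tables on GRCm38.p6.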

Additional observations from a re-analysis of the deposited data

Results flagged for a closer look

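The change between 12-day unstimulated and naive samples differed between bone and tendon, by edgeR's test of the difference itself, for 20 genes looked up. Among all genes tested it differed for 3171 of 19845 (16%). Looked up were the 30 named for the size of their change in bone, the 11 genes given in every case, and 6 list members. The 30 and the 6 were picked by their change in the same bone libraries that enter the difference. That choice favoured a large difference, so the count of 20 is not an independent result. Each value is the log2 change in bone minus that in tendon ± its standard error, with its adjusted p. Fibroblast and joint surface genes had more positive changes in bone: Dcn (2.33 ± 0.46, adjusted p = 0.00185), Prg4 (4.62 ± 0.85, adjusted p = 0.00133) and Angptl7 (4.26 ± 1.06, adjusted p = 0.00943). So did the macrophage genes Lyve1 (3.80 ± 0.52, adjusted p = 0.000215), Folr2 (3.41 ± 0.54, adjusted p = 0.000515) and Vsig4 (4.85 ± 1.02, adjusted p = 0.00313), and the growth factor gene Fgf2 (2.40 ± 0.27, adjusted p = 8.95e-05). Secreted or surface proteins of other kinds were Serpina3m (2.62 ± 0.86, adjusted p = 0.0396), Pla2g2e (4.17 ± 0.94, adjusted p = 0.00478), Pla1a (2.47 ± 0.57, adjusted p = 0.00582) and Gpr1 (3.41 ± 0.72, adjusted p = 0.00303), and the keratinocyte gene Krtdap (3.89 ± 0.80, adjusted p = 0.00242). Bone cell genes also had more positive changes in bone, where Sp7 fell and the others were not called, while all of them fell in tendon: Sp7 (4.14 ± 1.22, adjusted p = 0.0243), Bglap (7.47 ± 1.52, adjusted p = 0.00244), Sost (3.95 ± 1.35, adjusted p = 0.0492) and Acp5 (1.59 ± 0.52, adjusted p = 0.039), with tendon changes of -4.59 ± 1.07 (adjusted p = 0.00599), -7.74 ± 1.28 (adjusted p = 0.000756), -4.22 ± 1.25 (adjusted p = 0.0221) and -2.15 ± 0.38 (adjusted p = 0.00111). The osteoprotegerin gene was Tnfrsf11b (2.32 ± 0.43, adjusted p = 0.00119). Genes with more negative changes in bone were Tmcc2 (-2.56 ± 0.32, adjusted p = 0.000126), Sowaha (-3.28 ± 0.76, adjusted p = 0.00582) and Isg15 (-1.47 ± 0.43, adjusted p = 0.022). Groups had 3 libraries each, so no test for single outlying libraries was made within them.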

How the results depend on the processing

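Counts of calls in 12-day unstimulated against naive bone were 4110 of 18851 genes tested. They were 4114 with DESeq2's size factors, 4083 with scaling that leaves out muscle, marrow and keratinocyte genes, 3185 with no count filter, 4699 with DESeq2, 2902 with the 6 compared libraries alone and 4524 with the near-identical pair kept as 2 libraries. With limma-voom they were 6192, and with 1 library left out 1951 to 4062. No scaling moved the median of all genes by over 0.1 on the log2 scale. Between 12 and 5 days, 265 genes were called with DESeq2, 19 with limma-voom, 14 with the pair kept as 2 libraries and 20 without 5-day library 3; other settings gave 0. The bone minus tendon count of 3171 was 5670 with limma-voom, 3990 with DESeq2 (1928 more positive in bone and 2062 more negative), 2276 with no filter and 2127 to 3007 with 1 library left out. The cause of these differences was not tested.

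Of 182 genes followed across the alternatives, 172 were called. All 172 kept their direction under the 14 alternatives, and 125 also kept their call under each. Over 2548 pairs of gene and alternative, 167 lost a call, 12 gained one and 0 changed sign in a called value. List medians moved by more than the spread between libraries in 36 of 658 cases, and shares of counts in 2 of 56.

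Same-numbered 12-day and naive bones had correlations of deviations of 0.139, -0.107 and -0.169, and differently numbered ones -0.333 to 0.322. With 3 libraries a group, these values cannot show whether replicate numbers pair the samples. With the replicate number as a block, 3532 genes were called between 12-day and naive bone, 0 between 12 and 5 days, and 3175 for bone minus tendon. Genes under about 1 CPM, such as Matn1 in 12-day bone, rest on few reads, and depth limits their precision.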
